A study of Mus musculus with 16 samples.

Results

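The genes described here carry fatty acids from the blood to their oxidation inside the cell. They are 36 of the 21640 genes in the count table, a list drawn up by gene name with earlier results of these data known, and each was found by its Ensembl identifier without the version number. All 36 passed the filter on low counts at both time points, Cpt1b at 6 weeks only through the mice on the control diet.

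Thyroids came from 16 male wild-type C57Bl/6J mice that began their diets at 8 weeks of age. The HF+SD was high-fat food with 60% of its calories from fat, given with water holding 5% sucrose, and the control diet (CD) was a chow. Tissue was taken after 3 weeks (3W) or 6 weeks (6W), from 4 mice per diet and time point, and every mouse gave 1 library of poly(A) RNA read as pairs of 150 bp. The question was which genes of the whole thyroid differ between the diets at each time. Values for single mice are always given in the same order, which is M53, M54, M55 and M96 for the CD and M7, M19y, M20y and M31 for the HF+SD at 3W, then M22, M43, M45 and M48 for the CD and M5, M18, M34 and M35 for the HF+SD at 6W.

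Long-chain fatty acids are freed from circulating lipoproteins by lipoprotein lipase at the vessel wall, enter cells with the help of CD36, are carried by fatty acid-binding proteins and are activated to acyl-CoA. They are then stored as triglyceride in droplets coated by perilipins, or passed through the carnitine shuttle into mitochondria, where the β-oxidation spiral shortens them and electron transfer flavoprotein takes up the electrons. PPARα is the transcription factor best known for switching on this route in liver, heart, muscle and brown fat, tissues that burn fat for fuel.

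The libraries held between 30025256 and 48508653 counts. All 12 thyrocyte markers were detected, and Tg, which encodes thyroglobulin, took 26.8% to 29.7% of counts at 3W and 4.73% to 13.6% at 6W. The CD mice M43, M45 and M48 at 6W stood apart, since 3.91%, 16.5% and 12.0% of their counts lay on a list of 30 skeletal muscle markers, against 0.104% in the CD mouse M22, 0.128% to 0.456% on the HF+SD at 6W and at most 0.00922% at 3W. Several of the 36 genes are strongly expressed in muscle, so 6W calls below are also given from a fit that holds a muscle score constant (the muscle covariate) and from one without those 3 mice, in which M22 alone stands for the CD and is assumed to vary like the HF+SD mice. In whole tissue, fewer cells of a type and less RNA per cell cannot be told apart. Library names of the 2 time points begin with different numbers, whose meaning the labels do not give. Levels at 3W and 6W were for that reason not compared by a test.

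More of the 36 genes were lower than higher on the HF+SD at both times. At 6W, 19 members (52.8%) fell and 2 (5.56%) rose at an adjusted p under 0.05 in edgeR's quasi-likelihood test, beside 9.55% and 12.0% of the 18249 genes tested. At 3W, 10 members (27.8%) fell and 3 (8.33%) rose, beside 5.78% and 9.07% of 17238 genes. The diets did not overlap at 6W for 17 members that were lower and 2 that were higher, beside 9.97% and 13.8% of all genes. At 3W this held for 10 and 3 members, beside 10.5% and 13.1% of all genes. The median log2 fold change of the members was -0.66 at 6W and -0.16 at 3W, while that of all genes tested was -0.01 at both times. The members that fell at both times numbered 9, and those were Ppara, Cd36, Lpl, Acsl1, Plin2, Plin5, Acadl, Hadh and Hadhb, which make up 9 of the 19 at 6W and 9 of the 10 at 3W. Of the 17024 genes tested at both times, 2.05% fell at both. No member rose at both times, beside 5.67% of these genes, and 11 passed the test at neither, beside 71.6%. With 1 mouse left out at a time, 12 to 24 members fell at 6W, the fewest without the HF+SD mouse M18, beside 2.99% of all genes, and the most without the CD mouse M22, beside 14.9%. At 3W 7 to 12 fell, the fewest without M19y, beside 2.97% of all genes, and the most without M55, beside 7.88%. The 2 that rose at 6W passed in all 8 of these fits. At 3W the number that rose was 0 without M53, M7, M20y or M31, where 5.64% to 6.79% of all genes rose. It was 1 without M96 (6.94% of all genes) or M19y (6.44%) and 4 without M54 (9.74%) or M55 (11.5%). Of the 3 calls at 3W, Acads held in 4 of the 8 fits, and Vldlr and Acaa1a each in 2.

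**Figure D1:**
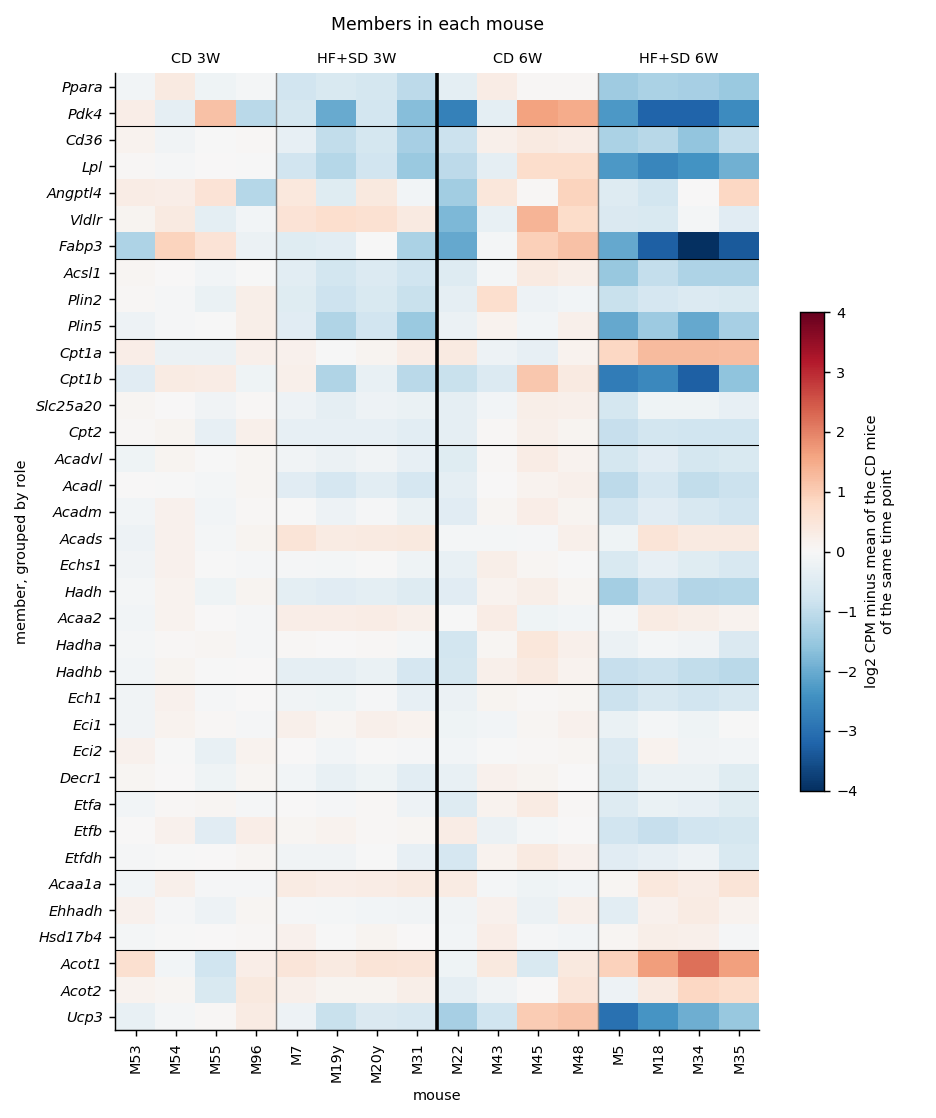
Each row is 1 of the 36 members and each column 1 mouse, and color gives log2 CPM minus the mean of the 4 CD mice of the same time point, blue for lower and red for higher. Apart from Angptl4 and Vldlr, the rows from Ppara to Plin5 are mostly blue in the HF+SD columns at both times, Cpt1a and Acot1 are red in the HF+SD columns at 6W, and the CD mouse M22 is paler or bluer than the other CD mice at 6W in several rows.

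Ppara (ENSMUSG00000022383.14) encodes the nuclear receptor PPARα. At 3W it was measured at 5.79, 8.07, 5.50 and 5.89 CPM (counts relative to the library total, scaled by TMM factors) in the CD mice and 3.66, 4.04, 3.83 and 2.98 CPM in the HF+SD mice. At 6W the CD mice had 4.53, 7.33, 6.21 and 6.23 CPM and the HF+SD mice 2.19, 2.45, 2.36 and 2.12 CPM. Every HF+SD mouse was below every CD mouse of its time point, M22 included. The log2 fold change was -0.80 at 3W (SE 0.16, adjusted p = 0.0117) and -1.41 at 6W (SE 0.19, adjusted p = 0.00139). With the muscle covariate the 6W value was -1.19 (adjusted p = 0.00987), and against M22 alone it was -0.998 (adjusted p = 0.0746).

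Pdk4, a kinase that turns pyruvate dehydrogenase off and thereby favors fat over glucose as fuel, is a well-known target of PPARα. At 3W it was listed at 112, 73.2, 212 and 44.6 CPM in the CD mice and 58.1, 22.98, 56.4 and 29.02 CPM in the HF+SD mice, groups that overlapped, and the difference of -1.41 on the log2 scale did not pass (SE 0.47, adjusted p = 0.0703). At 6W the CD mice had 46.6, 233, 932 and 845 CPM and the HF+SD mice 62.3, 32.7, 33.3 and 53.7 CPM. The CD mouse with little muscle RNA, M22, lay inside the HF+SD range, and the other CD mice were far above it. The 6W log2 fold change was -3.50 (SE 0.79, adjusted p = 0.016), and it became -0.67 with the muscle covariate (adjusted p = 0.084) and -0.04 against M22 alone (adjusted p = 0.96). Without M18 or M34 the adjusted p was up to 0.0554.

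PPARα binds DNA at paired copies of the element AGGTCA, set 1 base apart. The RefSeq promoter table (GRCm38.p6) held 33 promoters for 30 of the members, and the 250 bases before the start were searched on both strands. An AGGTCA element was found in 8 of the 33 (24.2%), beside 14.0% of all 32851 promoters, while an exact pair was in 0 of the 33 and in 0.0335% of all. These matches describe the letters alone. No element lay in that stretch for Ppara, Acsl1, Acadl, Hadh or Hadhb, which also fell at both times, nor for Pdk4. Lpl had no promoter among the 33, and the second Plin5 promoter held no element. The 8 are shown because they include 3 genes that fell at both times, Plin5, Plin2 and Cd36, the muscle-type gene Ucp3, and Cpt1a, one of the genes that rose at 6W. Each is written on the strand of its gene with 20 bases on either side where the searched stretch allows, and capitals mark the element or its reverse complement, TGACCT.
Plin5 (chr17:56117693-56117738, - strand): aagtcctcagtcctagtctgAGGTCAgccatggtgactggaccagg
Plin2 (chr4:86670252-86670297, - strand): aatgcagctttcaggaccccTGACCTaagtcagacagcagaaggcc
Cd36 (chr5:17836099-17836144, - strand): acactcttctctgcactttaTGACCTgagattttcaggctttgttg
Cpt1a (chr19:3323187-3323232, + strand): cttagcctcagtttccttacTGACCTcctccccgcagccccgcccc
Ucp3 (chr7:100472822-100472972, + strand): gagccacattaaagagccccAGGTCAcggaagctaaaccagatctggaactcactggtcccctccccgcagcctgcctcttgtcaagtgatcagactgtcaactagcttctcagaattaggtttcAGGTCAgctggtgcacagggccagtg
Acadm (chr3:153944867-153944893, - strand): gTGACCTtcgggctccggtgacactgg
Acadvl (chr11:70015490-70015535, - strand): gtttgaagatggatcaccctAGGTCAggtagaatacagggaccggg
Echs1 (chr7:140116479-140116524, - strand): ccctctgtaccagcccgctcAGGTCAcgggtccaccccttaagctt

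Lipoprotein lipase, encoded by Lpl (ENSMUSG00000015568.17), fell the most of the uptake genes at 3W. It was measured at 249, 231, 242 and 238 CPM in the CD mice and 142, 108, 141 and 84.97 CPM in the HF+SD mice, for a log2 fold change of -1.01 (SE 0.15, adjusted p = 0.00244). At 6W the CD mice had 339.7, 541, 1129.7 and 1128 CPM and the HF+SD mice 141, 113, 132 and 185 CPM. The groups did not overlap at either time, and the CD mice at 6W spread widely, the lowest being M22. The 6W log2 fold change was -2.46 (SE 0.39, adjusted p = 0.00324). It was smaller but still passed with the muscle covariate, at -1.45 (adjusted p = 0.00423), and against M22 alone, at -1.26 (adjusted p = 0.0284).

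Cd36 encodes the fatty acid translocase, which is abundant in the endothelium of small vessels, in fat and in muscle. The CD mice at 3W had 121, 98.9, 109 and 113 CPM and the HF+SD mice 87.3, 56.1, 67.1 and 43.6 CPM. At 6W the values were 134, 276, 309 and 298 CPM on the CD and 99.8, 113, 80.6 and 125 CPM on the HF+SD. There was no overlap at either time, but M22 was just above the highest HF+SD mouse at 6W. The log2 fold change was -0.80 at 3W (SE 0.18, adjusted p = 0.018) and -1.28 at 6W (SE 0.27, adjusted p = 0.0115). At 6W it no longer passed with the muscle covariate (-0.63, adjusted p = 0.0832) or against M22 alone (-0.36, adjusted p = 0.397).

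Fabp3, the fatty acid-binding protein of heart and skeletal muscle, was low at 3W, at 2.10, 9.42, 7.38 and 4.28 CPM on the CD and 3.60, 3.74, 4.99 and 2.07 CPM on the HF+SD, and the groups overlapped (log2 fold change -0.69, adjusted p = 0.301). At 6W it was at 40.8, 158, 327 and 380.0 CPM on the CD and 40.4, 17.3, 4.04 and 16.3 CPM on the HF+SD. M22 and the HF+SD mouse M5 were nearly equal, and the remaining CD mice were several times higher. The log2 fold change was -3.54 (SE 0.80, adjusted p = 0.016), against -1.56 with the muscle covariate (adjusted p = 0.0748) and -1.07 against M22 alone (adjusted p = 0.493). Without M18 or M35 the adjusted p was up to 0.0542.

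Vldlr and Angptl4 were the uptake genes that did not pass the test at 6W. Vldlr encodes the receptor for very low-density lipoprotein, and at 3W it rose from 95.95 ± 20.7 CPM to 138 ± 12.3 CPM (log2 fold change 0.52, adjusted p = 0.0388). That call held in 2 of the 8 fits that leave out 1 mouse. At 6W Vldlr ranged from 67.3 to 591 CPM on the CD and from 153 to 223 CPM on the HF+SD. M22 was the lowest of all 8 mice and M45 the highest. The 6W log2 fold change of -0.82 did not pass (adjusted p = 0.295), it turned to 0.96 with the muscle covariate (adjusted p = 0.117), and against M22 alone it was 1.38 (adjusted p = 0.0311). Angptl4, a secreted inhibitor of lipoprotein lipase, overlapped between diets at both times, with log2 fold changes of -0.03 at 3W and -0.18 at 6W.

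All 3 genes of activation and storage fell at both times. Acsl1 encodes the long-chain acyl-CoA synthetase of fat, liver and muscle. It was at 211, 203, 185 and 199 CPM on the CD and 148, 121, 135 and 114 CPM on the HF+SD at 3W, for a log2 fold change of -0.63 (SE 0.09, adjusted p = 0.00272). At 6W the values were 171, 233, 319.9 and 294 CPM and 86.5, 128, 105 and 105 CPM, for a log2 fold change of -1.26 (SE 0.22, adjusted p = 0.00458). No HF+SD mouse reached the lowest CD mouse of its time point. The 6W value was -0.85 with the muscle covariate (adjusted p = 0.0273) and did not pass against M22 alone (-0.70, adjusted p = 0.107).

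Perilipin 5, the droplet coat protein of tissues that oxidize fat, had the largest difference of these 3 at both times. Plin5 (ENSMUSG00000011305.12) was at 8.56, 9.56, 9.82 and 11.6 CPM on the CD and 7.21, 4.27, 5.79 and 3.49 CPM on the HF+SD at 3W. At 6W the CD mice had 11.2, 14.6, 12.3 and 15.3 CPM and the HF+SD mice 3.14, 4.83, 3.20 and 5.24 CPM. The groups did not overlap at either time, and M22 was close to the other CD mice. The log2 fold change was -0.93 at 3W (SE 0.21, adjusted p = 0.0187) and -1.70 at 6W (SE 0.22, adjusted p = 0.00123). It was -1.58 with the muscle covariate (adjusted p = 0.00583) and -1.46 against M22 alone (adjusted p = 0.0475). Without M19y the 3W value had an adjusted p of 0.0561, and that of Cd36 then had one of 0.0558.

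Plin2, the droplet coat protein found in most cell types, was at 85.9, 80.8, 69.5 and 98.1 CPM on the CD and 59.4, 46.4, 54.8 and 44.6 CPM on the HF+SD at 3W. At 6W the CD mice had 90.4, 185, 99.6 and 106 CPM and the HF+SD mice 61.9, 71.6, 78.00 and 74.7 CPM. The groups were apart at both times, with M43 well above the other CD mice. The log2 fold change was -0.70 at 3W (adjusted p = 0.00599) and -0.75 at 6W (adjusted p = 0.0442), and leaving out M48 or any 1 of the HF+SD mice took the 6W value past the threshold, to an adjusted p of up to 0.107. It also did not pass with the muscle covariate (-0.67, adjusted p = 0.194) or against M22 alone (-0.34, adjusted p = 0.29).

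**Figure D2:**
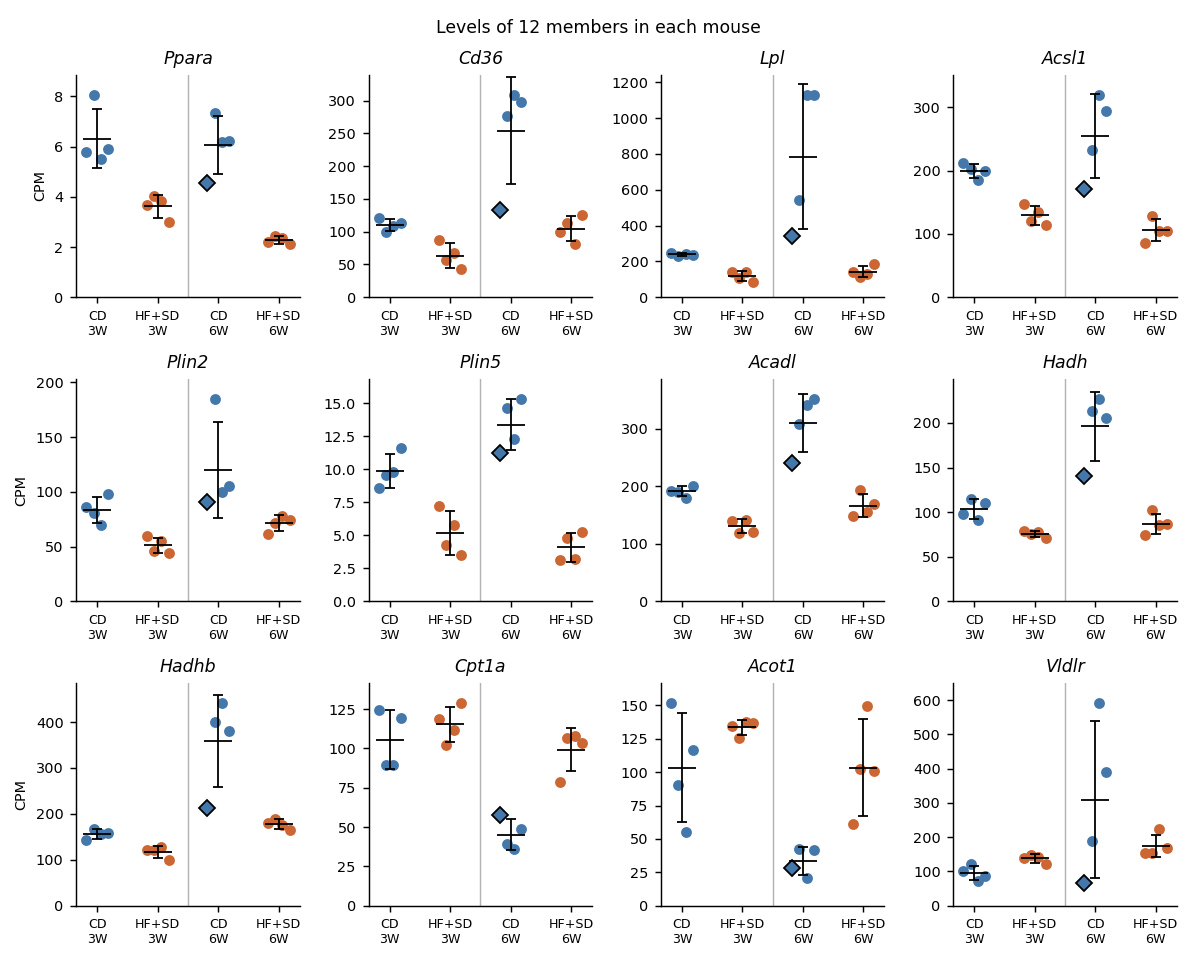
Points are single mice in CPM on axes that start at 0, blue for the CD and orange for the HF+SD, the diamond is the CD mouse M22, and bars are the mean ± SD of 4 mice. The 9 members that fell at both times are lower in every HF+SD mouse than in every CD mouse of the same time point. Cpt1a and Acot1 are higher in every HF+SD mouse at 6W and overlap at 3W. Of all genes tested, 9.97% at 6W and 10.5% at 3W were lower without overlap, and 13.8% at 6W were higher. Acot1 and Vldlr were added to the plot after their values were seen.

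Carnitine palmitoyltransferase 1 commits fatty acids to mitochondria, and its forms differ by tissue, Cpt1a (ENSMUSG00000024900.6) being the liver form and Cpt1b that of muscle and brown fat. The 2 genes differed in opposite directions at 6W. Cpt1a was at 57.5, 39.01, 35.7 and 48.7 CPM on the CD and 78.8, 106, 108 and 104 CPM on the HF+SD, with no overlap, and its log2 fold change was 1.13 (SE 0.18, adjusted p = 0.00328). It still passed with the muscle covariate (0.88, adjusted p = 0.022) and not against M22 alone (0.78, adjusted p = 0.0896), although M22, the highest CD mouse, was below every HF+SD mouse. At 3W the groups overlapped, at 124, 89.2, 89.3 and 119.5 CPM on the CD and 119, 102, 112 and 129 CPM on the HF+SD (log2 fold change 0.13, adjusted p = 0.537).

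Cpt1b was near the lower end of detection throughout. At 6W it was at 1.15, 1.46, 4.65 and 2.79 CPM on the CD and 0.264, 0.314, 0.174 and 0.672 CPM on the HF+SD, without overlap, and the log2 fold change was -2.79 (SE 0.55, adjusted p = 0.0088). In the HF+SD mice these levels were counts of 10, 10, 6 and 25, and only 2 of the 4 reached the level the filter asks for, so the gene entered the 6W test through the CD mice. It was kept among the 19 that fell, and without the filter its adjusted p was 0.00938. With the muscle covariate it was -1.79 (adjusted p = 0.0578), and against M22 alone -1.68 (adjusted p = 0.176). At 3W the values were 0.545, 0.987, 0.951 and 0.686 CPM and 0.888, 0.307, 0.62 and 0.338 CPM, overlapping, with a log2 fold change of -0.56 (adjusted p = 0.341). In GENCODE M21 81.4% of the exon bases of Cpt1b also belong to a second gene on the same strand, Gm44502, so its level is uncertain.

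Of the remaining shuttle genes, Slc25a20 encodes the carnitine carrier of the inner membrane. At 3W it was at 61.8, 59.8, 53.1 and 60.6 CPM on the CD and 50.6, 45.9, 50.7 and 49.4 CPM on the HF+SD, a small difference without overlap (log2 fold change -0.26, SE 0.07, adjusted p = 0.0429), and the call held only in the fit without M55 of the 8 that leave out 1 mouse. At 6W the groups overlapped, at 69.2, 82.2, 104 and 101 CPM and 53.95, 77.3, 78.7 and 70.2 CPM (log2 fold change -0.35, adjusted p = 0.188). Cpt2, which rebuilds acyl-CoA on the matrix side, fell at 6W from 65.4 ± 10.4 CPM to 36.7 ± 2.01 CPM (log2 fold change -0.83, adjusted p = 0.00408). That value was -0.59 with the muscle covariate (adjusted p = 0.0281) and did not pass against M22 alone (-0.47, adjusted p = 0.135), and at 3W its log2 fold change of -0.37 had an adjusted p of 0.0515.

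In the mitochondrial spiral, 6 of 9 members fell at 6W and 3 of 9 at 3W, and 1 rose at 3W. Acadl encodes long-chain acyl-CoA dehydrogenase. It was at 192, 191, 180.1 and 201 CPM on the CD and 140.4, 119.6, 141 and 120.0 CPM on the HF+SD at 3W, for a log2 fold change of -0.55 (SE 0.08, adjusted p = 0.00268). At 6W the values were 239.6, 308, 341 and 352 CPM and 148, 193, 155 and 169.7 CPM, for a log2 fold change of -0.90 (SE 0.17, adjusted p = 0.00662). The diets were fully separated at both times. The 6W value was -0.65 with the muscle covariate (adjusted p = 0.0376) and did not pass against M22 alone (-0.53, adjusted p = 0.142).

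Hadh, the medium- and short-chain hydroxyacyl-CoA dehydrogenase, had the largest 6W difference of the spiral. The CD mice had 140.1, 213, 227 and 205 CPM and the HF+SD mice 74.5, 102, 85.5 and 86.8 CPM, for a log2 fold change of -1.17 (SE 0.18, adjusted p = 0.00275). At 3W the values were 97.7, 115, 91.3 and 111 CPM and 79.00, 75.1, 77.97 and 71.5 CPM, for a log2 fold change of -0.45 (SE 0.09, adjusted p = 0.00875). Here too no HF+SD mouse reached a CD mouse of its time point, and the 6W value with the muscle covariate was -0.87 (adjusted p = 0.0155). Against M22 alone it was -0.69 and did not pass (adjusted p = 0.0824).

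Hadha and Hadhb encode the α and β subunits of 1 complex, the mitochondrial trifunctional protein, and were not called alike. Hadhb was at 143, 167, 155 and 159 CPM on the CD and 122, 121, 129 and 98.5 CPM on the HF+SD at 3W (log2 fold change -0.41, SE 0.09, adjusted p = 0.019). At 6W it was at 212, 400.1, 441 and 381 CPM and 181, 189, 177 and 164 CPM (log2 fold change -1.01, SE 0.22, adjusted p = 0.0132). Its groups were apart at both times, though M22 was nearer to the HF+SD mice than to the other CD mice. The 6W call was lost with the muscle covariate (-0.50, adjusted p = 0.0944) and against M22 alone (-0.26, adjusted p = 0.365). Hadha had mean levels of 217 ± 11.04 CPM on the CD and 218 ± 9.77 CPM on the HF+SD at 3W, for a log2 fold change of 0.006 whose sign changed with DESeq2 size factors, and of -0.31 at 6W (adjusted p = 0.39). Whether the 2 subunits differ from each other in response was not tested.

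The acyl-CoA dehydrogenases Acadvl and Acadm and the hydratase Echs1 fell at 6W, with log2 fold changes of -0.64 (adjusted p = 0.0338), -0.68 (adjusted p = 0.026) and -0.53 (adjusted p = 0.0361). Each of these calls was lost when M45, M48 or any 1 of the HF+SD mice was left out, and none passed with the muscle covariate, whose values were -0.29, -0.37 and -0.36, or against M22 alone, at -0.14, -0.22 and -0.21. In GENCODE M21 42.9% of the exon bases of Acadvl overlap Dvl2 on the opposite strand, and since the strand setting of the counting is unknown its level is uncertain. Acads, the short-chain dehydrogenase, rose at 3W from 43.8 ± 5.05 CPM to 57.3 ± 3.08 CPM (log2 fold change 0.39, adjusted p = 0.0212). That call held in 4 of the 8 fits that leave out 1 mouse. The thiolase Acaa2, which closes the spiral, had log2 fold changes of 0.25 at 3W (adjusted p = 0.0531) and 0.15 at 6W (adjusted p = 0.537).

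Unsaturated fatty acids need helper enzymes to pass fully through the spiral, and of the 4 members with this role only Ech1, a dienoyl-CoA isomerase, fell. At 6W it was at 266, 339.6, 324 and 329 CPM on the CD and 174, 202, 184 and 203 CPM on the HF+SD, apart from each other, with a log2 fold change of -0.72 (SE 0.14, adjusted p = 0.00768). It was -0.59 with the muscle covariate (adjusted p = 0.0373) and did not pass against M22 alone (-0.48, adjusted p = 0.124). At 3W it was at 118, 149, 128 and 133 CPM and 118, 117, 128 and 104 CPM, overlapping, with a log2 fold change of -0.18 (adjusted p = 0.233). Both isomerases, Eci1 and Eci2, and the reductase Decr1 passed at neither time, and their log2 fold changes lay between -0.25 and 0.16 at 3W and between -0.41 and -0.14 at 6W.

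Etfa and Etfb encode the subunits of electron transfer flavoprotein, and Etfdh the dehydrogenase that hands its electrons to the respiratory chain. Etfb was at 13.7, 9.59, 10.6 and 11.3 CPM on the CD and 6.65, 5.89, 6.63 and 6.82 CPM on the HF+SD at 6W, for a log2 fold change of -0.80 (SE 0.16, adjusted p = 0.00917). M22 was the highest of all mice, and the value was larger with the muscle covariate, at -0.94 (adjusted p = 0.0111), and against M22 alone, at -1.08 (adjusted p = 0.0327). At 3W it was at 5.37, 5.98, 3.81 and 6.34 CPM and 5.57, 5.84, 5.48 and 5.60 CPM, overlapping, with a log2 fold change of 0.06 (adjusted p = 0.818). Its level is uncertain, since 53% of its exon bases are shared with Gm45233 on the same strand. Etfa and Etfdh passed at neither time, with log2 fold changes of -0.42 and -0.44 at 6W.

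The peroxisome shortens very long-chain and branched fatty acids, and none of its 3 members passed the test as lower at either time. Acaa1a, a peroxisomal thiolase, rose at 3W, from 105, 129.6, 109 and 109 CPM on the CD to 141, 134, 139 and 146 CPM on the HF+SD, without overlap (log2 fold change 0.31, SE 0.08, adjusted p = 0.0333). At 6W it was at 132, 100.2, 93.7 and 96.5 CPM and 111, 141, 129.7 and 149.7 CPM, and the groups overlapped (log2 fold change 0.33, adjusted p = 0.168). The 3W call held in 2 of the 8 fits that leave out 1 mouse. The bifunctional enzymes Ehhadh and Hsd17b4 had log2 fold changes between -0.10 and 0.12 over both times.

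Acot1 and Acot2 encode cytosolic and mitochondrial thioesterases, which release free fatty acid from acyl-CoA. Acot1 (ENSMUSG00000072949.7) had the largest rise of any member. At 6W it ranged from 21.1 to 42.5 CPM on the CD and from 61.0 to 149 CPM on the HF+SD, and the log2 fold change was 1.63 (SE 0.30, adjusted p = 0.00703). With the muscle covariate the value was nearly the same, 1.60, at an adjusted p of 0.053, and against M22 alone it was 1.86 (adjusted p = 0.0649). At 3W the CD mice spread from 55.2 to 152 CPM around the HF+SD mice at 125 to 138 CPM (log2 fold change 0.37, adjusted p = 0.337). Acot2 had a log2 fold change of 0.44 at 6W (adjusted p = 0.247), and because the 2 genes are close paralogs, reads may have been divided between them.

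Ucp3, the mitochondrial uncoupling protein of skeletal muscle and brown fat, fell at 6W. It was at 13.6, 19.8, 69.5 and 74.5 CPM on the CD and 4.30, 6.71, 8.90 and 11.95 CPM on the HF+SD, for a log2 fold change of -2.48 (SE 0.58, adjusted p = 0.0175). M22 was slightly above the highest HF+SD mouse, and with the muscle covariate the value was -1.02 (adjusted p = 0.212), against M22 alone -0.78 (adjusted p = 0.357). Without M18 or M34 the adjusted p was up to 0.0574. At 3W the values were 6.06, 7.08, 7.69 and 9.28 CPM and 6.48, 3.97, 4.99 and 4.76 CPM, overlapping, and the log2 fold change of -0.58 had an adjusted p of 0.0601.

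**Figure D3:**
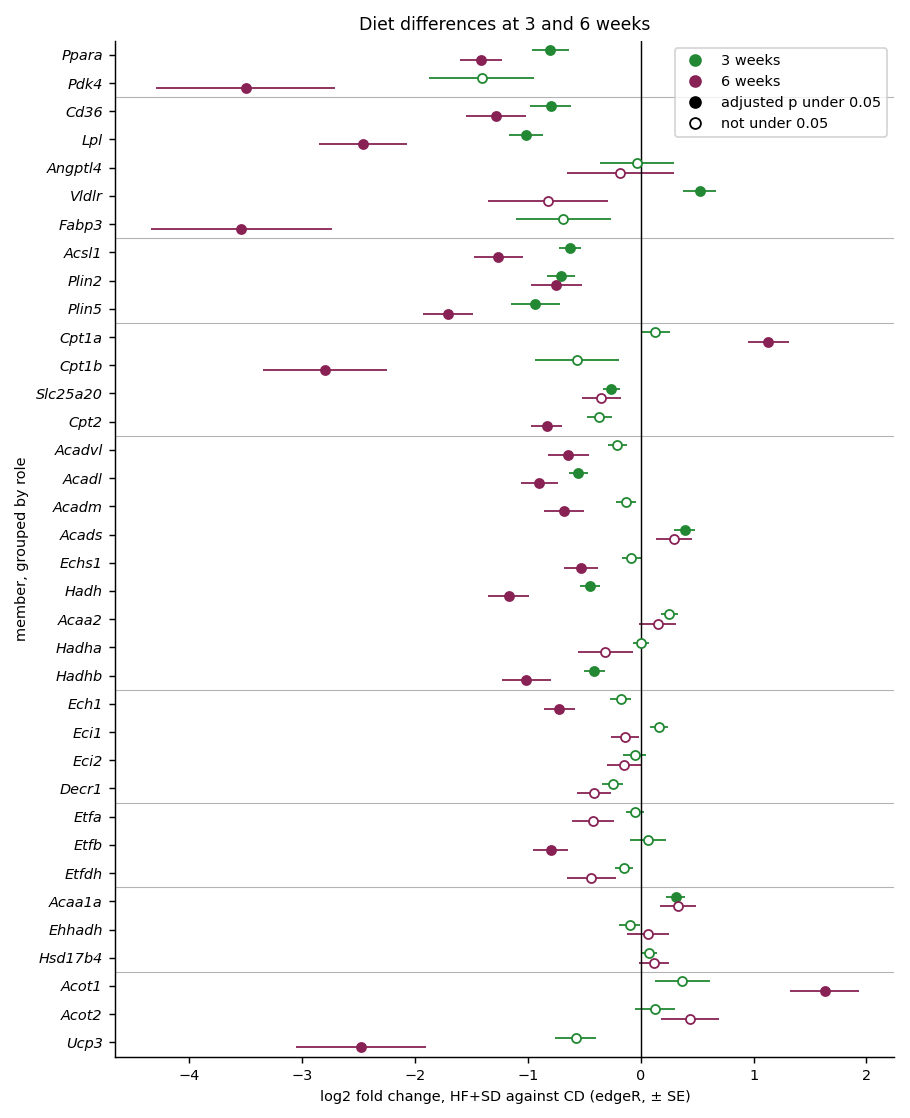
Points are log2 fold changes of the HF+SD against the CD from edgeR with bars of 1 SE, green for 3W and purple for 6W, filled where the adjusted p is under 0.05. For the 19 members that fell at 6W the 6W point lies left of the 3W point, and Cpt1a and Acot1 lie right of 0 at 6W.

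All 19 members that fell at 6W had a more negative log2 fold change at 6W than at 3W, as had 95.7% of all genes that fell at 6W and were tested at both times. The difference between the time points was tested as the diet by time interaction over all 16 libraries. In edgeR 0 of the 36 passed, beside 0.0792% of 18929 genes, and 22 (61.1%) had an unadjusted p under 0.05, beside 22.3% of all genes. The smallest adjusted p was 0.0616, for Cpt1a (interaction 0.95 on the log2 scale), Hadh (-0.78) and Etfb (-0.92). With DESeq2 9 members passed, beside 10.4% of all genes with an adjusted p, namely Lpl, Fabp3, Cpt1b, Hadh, Ech1, Etfb and Ucp3, with the more negative difference at 6W, and Cpt1a and Acot1, with the more positive. No interaction fit held the muscle score, and the part of muscle RNA in the interaction was not tested. At 6W with the muscle covariate, Lpl, Hadh, Ech1, Etfb and Cpt1a passed, and Fabp3, Cpt1b, Ucp3 and Acot1 did not. Without M22 the CD at 6W was left with M43, M45 and M48, the mice high in muscle markers. The edgeR count was then 20, beside 14.1% of all genes, and without M43 it was 7, beside 6.70%.

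At 6W 28 of the 29 skeletal muscle markers tested were lower on the HF+SD, and their summed level ran from 899.9 to 230380 CPM on the CD and from 1242 to 4362 CPM on the HF+SD, with no marker at 0 in every mouse of a group. The 4 members known as muscle-type forms, Fabp3, Cpt1b, Ucp3 and Plin5, had 6W log2 fold changes of -3.54, -2.79, -2.48 and -1.70. With the muscle covariate these were -1.56, -1.79, -1.02 and -1.58, and of the 4 only Plin5 passed. Over all members, 9 fell and 1 rose with the covariate, beside 3.97% and 6.59% of all genes. The 9 were Ppara, Lpl, Acsl1, Plin5, Cpt2, Acadl, Hadh, Ech1 and Etfb, all among the 19, and the 1 was Cpt1a. With M43, M45 and M48 left out, 3 members fell (Lpl, Plin5 and Etfb) and 1 rose (Vldlr), beside 1.95% and 3.22% of all genes. At 3W the muscle list summed to 20.9 to 90.6 CPM on the CD and 40.6 to 80.2 CPM on the HF+SD, and on each diet 1 of its 30 markers was at 0 in every mouse (Tnni1 on the CD, Myl2 on the HF+SD).

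**Figure D4:**
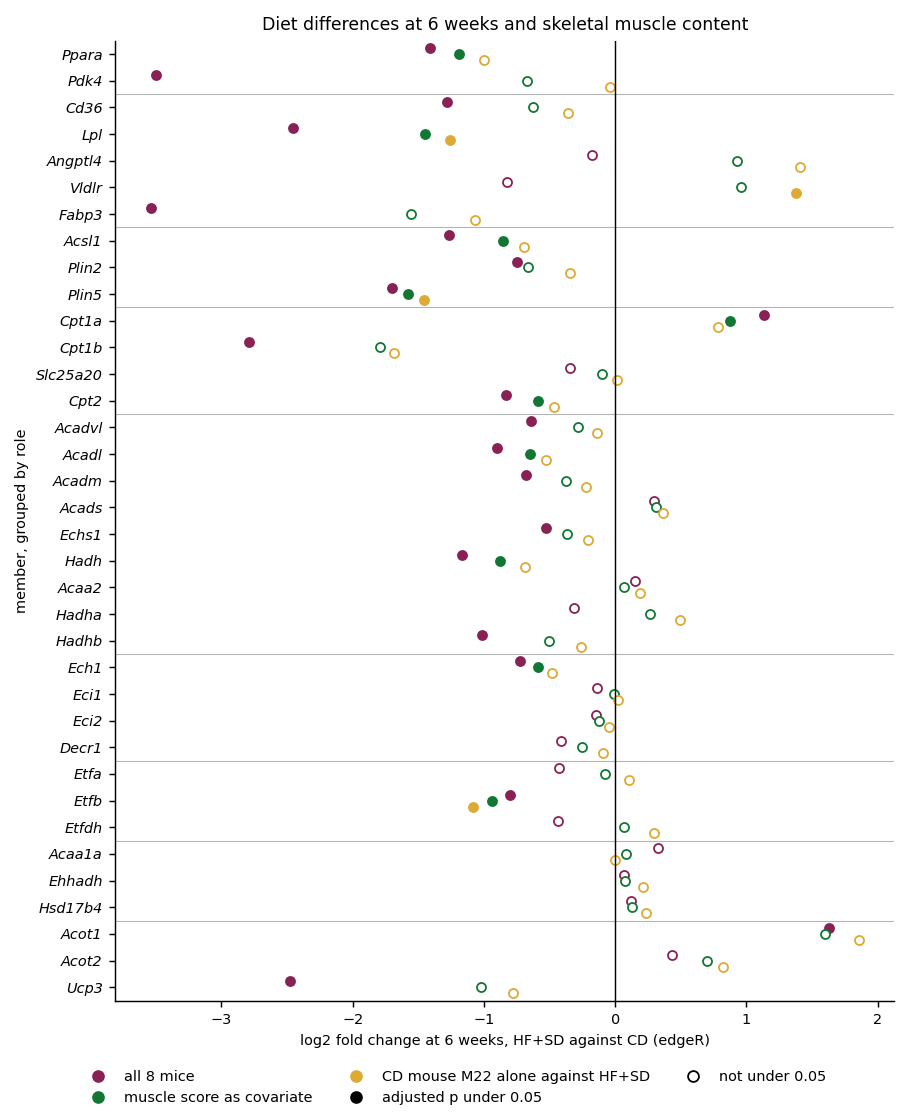
Each member has its 6W log2 fold change of the HF+SD against the CD from all 8 mice (purple), with the muscle covariate (green) and with M22 as the only CD mouse (yellow), filled where the adjusted p is under 0.05. Pdk4, Fabp3 and Ucp3 move far toward 0, Plin5, Etfb and Acot1 stay close to their first value, and Vldlr changes sign.

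Fat cell markers moved with the members at both times. Of the brown adipocyte markers tested, 5 of 6 were lower on the HF+SD at 6W and 5 of 7 at 3W, and their summed level was 684 to 1021 CPM on the CD and 102 to 229 CPM on the HF+SD at 6W, and 217 to 429 CPM and 127 to 215 CPM at 3W. Ucp1, the defining marker of brown fat, was at 187 to 416 CPM on the CD and 5.87 to 54.1 CPM on the HF+SD at 6W. Cox7a1 and Cox8b of the same list had log2 fold changes of -0.40 (adjusted p = 0.395) and -1.37 at 3W and -2.68 and -3.67 at 6W. Cox7a1 ranged from 42.2 to 276 CPM on the CD at 6W. Cidea, also on it, was at -3.51 with the muscle covariate. Whether muscle RNA adds to the brown adipocyte sum at 6W was not tested. Of the white adipocyte markers, 6 of 8 were lower at 6W and 5 of 8 at 3W, with sums of 501 to 1128 CPM on the CD and 279 to 456 CPM on the HF+SD at 6W, and 631 to 776 CPM and 242 to 486 CPM at 3W. Zic1 was at 0 in every mouse at 3W. M22, low in muscle markers, had the lowest brown adipocyte sum of the CD mice at 6W, 684 CPM beside 874 to 1021 CPM in the others. Its white adipocyte sum of 647 CPM was within the range of the other CD mice. Neither sum overlapped between the diets at either time, so a smaller share of fat cell RNA and lower expression within a cell type cannot be told apart for genes that adipocytes express, such as Lpl, Cd36, Acsl1 and Plin5.

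**Figure D5:**
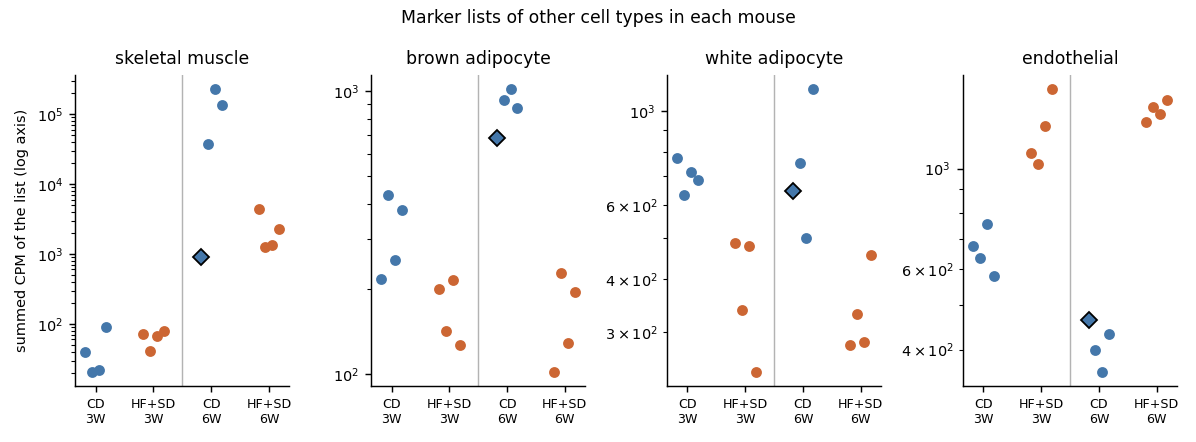
Points are the summed CPM of a marker list in 1 mouse on a log axis, blue for the CD and orange for the HF+SD, and the diamond is M22. Skeletal muscle markers are high in 3 CD mice at 6W, both adipocyte sums are lower in every HF+SD mouse than in every CD mouse of the same time, and the endothelial sum is higher.

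The endothelial markers went the other way, with 10 of 10 higher on the HF+SD at both times and sums of 358 to 464 CPM on the CD and 1263 to 1417 CPM on the HF+SD at 6W, and 580 to 754 CPM and 1024 to 1499 CPM at 3W. Cd36, which endothelium also expresses, fell at both times beside them. Of the 12 thyrocyte markers 6 rose at 6W and 7 at 3W, and none fell. Of the 8 macrophage markers 6 rose at 6W and 0 at 3W. Of the 6 fibroblast markers 1 fell at 6W and 3 rose at 3W. The part of these lists in the members' values was not tested. When libraries were scaled to 9 thyrocyte genes, which shifted the median of all genes by -0.67 at 6W and -0.17 at 3W, 27 members fell and 1 (Acot1) rose at 6W, beside 47.8% and 3.96% of all genes, and 13 fell and 0 rose at 3W, beside 11.2% and 4.57%.

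Levels of different members were compared per kilobase of exon, with lengths from GENCODE M21. Each length joins the exons of all annotated transcripts of a gene, so the order below also depends on the annotation. In the CD mice at 3W, where muscle markers were lowest, the thiolase Acaa2 was the highest member at 186 CPM per kilobase (SD 14.9), followed by the dehydrogenases Acadl at 95.3 (SD 4.33) and Acadvl at 75.4 (SD 6.28). Etfa at 72.3 CPM per kilobase (SD 4.55) was within 1 SD of Acadvl. Ppara was near the bottom at 1.65 CPM per kilobase (SD 0.308), and Cpt1a at 13.8 (SD 2.48) stood far above Cpt1b at 0.235 (SD 0.0631). Plin2 at 23.8 CPM per kilobase (SD 3.38) was above Plin5 at 4.74 (SD 0.61).

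A wider list of fatty acid genes beyond the 36 was read in the same fits. It had 80 genes in the table, of which 11 rose and 26 fell at 6W, beside 12.0% and 9.55% of all genes. Of the 78 tested at 3W 10 rose and 18 fell, beside 9.07% and 5.78% of all genes. The part of the list that rose was only a little above the share of all genes at either time. With the muscle covariate 7 rose and 15 fell at 6W, beside 6.59% and 3.97% of all genes. The storage genes leaned lower, with 14 of 25 fallen and 2 risen at 6W and 10 of 24 fallen and 2 risen at 3W. Of the uptake genes 3 of 16 rose and 5 fell at 6W, and 2 of 15 rose and 2 fell at 3W. Of the 14 genes of mitochondrial oxidation 2 rose and 3 fell at each time, of the 15 peroxisomal genes 3 rose and 2 fell at 6W and 2 rose and 2 fell at 3W, and of the 10 regulators 1 rose and 2 fell at 6W and 2 rose and 1 fell at 3W.

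Among the largest differences of the wider list at 6W were those in Fitm1, a droplet-forming protein of muscle (log2 fold change -5.24), Angptl8, a circulating inhibitor of lipoprotein lipase (-3.82), Cidea, the droplet protein of brown fat (-3.15), and the nuclear receptor Esrrg (-3.09). Acsl6 and Slc27a2, which activate fatty acids, fell by 3.06 and 2.84 on the log2 scale, and the peroxisomal transporter Abcd2, the acyltransferase Gpam and the phosphatase Lpin1 fell by 2.30, 2.30 and 2.08. With the muscle covariate Fitm1, Acsl6 and Gpam no longer passed. Against M22 alone Fitm1 turned to 1.21, and Acsl6, Gpam and Abcd2 were at -0.85, -0.25 and -0.61 on the log2 scale. Angptl8, Cidea, Esrrg, Slc27a2 and Lpin1 were then at -4.94, -3.28, -2.63, -3.08 and -1.06. At 3W the largest were Angptl8 (-2.75), Cidea (-2.07) and Acacb, the acetyl-CoA carboxylase that makes the inhibitor of carnitine palmitoyltransferase 1 (-1.74). They were followed by Pparg, the master regulator of fat cells (-1.25), Agpat2 (-1.24), Plin1 (-1.11), Abcd2 (-1.06), Fabp4 (-1.05) and Acaa1b (-1.04), and by the coactivator Ppargc1b, which rose (1.05). Angptl8 was near the floor on the HF+SD, at 0.161 to 0.388 CPM at 3W and 0.0872 to 0.470 CPM at 6W. It entered both tests through the CD mice, and at 3W these, at 0.309 to 4.71 CPM, overlapped the HF+SD mice. Slc27a2 was also low on the HF+SD at 6W, at 0.132 to 0.860 CPM, so the size of both differences is uncertain. Cidea, Plin1, Fabp4 and Pparg are known for their high expression in fat cells, and Cidea and Plin1 are also on the adipocyte lists above.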

How the data were processed

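The authors deposited a table of raw read counts for 21640 genes in 16 thyroid libraries, with no normalization. The submitters' processing notes name Trim Galore 0.6.7, STAR, DESeq2 1.36.0, R 4.1.0 and the mm39 build. What counted the reads, and with which strand setting and annotation, is not given in the sources used here. A deposited table of normalized values was not used. All 4 deposited CD mice at 6 weeks were used, although the study describes fewer without naming them.

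Diets were compared within a time point in edgeR 4.0.16 (R 4.3.3), with TMM factors, filterByExpr, glmQLFit, glmQLFTest and Benjamini-Hochberg adjustment over all genes tested. The diet by time interaction was fitted over all 16 libraries. The SE is the absolute log2 fold change divided by the square root of F. The steps were tested on simulated data. Each library is 1 mouse, and 20841 identifiers had a symbol.

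The muscle score is the mean log2 CPM of the skeletal muscle markers. Members, gene lists and tests were chosen with earlier results of these data known. Values mouse by mouse are given for members that passed at both times, for the largest difference among those that passed in each role, and for Ppara, Pdk4 and the muscle-type forms. From the wider list the 10 largest differences that passed at each time are named, except 1 at 6 weeks that is not reported here. The alternatives tried were DESeq2 1.42.0, its size factors in edgeR, no filter on low counts, an additional minimum absolute log2 fold change of 1, scaling to 9 thyrocyte genes, the muscle covariate, and leaving out mice.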

Additional observations from a re-analysis of the deposited data

Results flagged for a closer look

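In 6 of 144 sets of 4 mice (36 members in 4 groups), 1 mouse stood apart from the other three by Dixon's criterion for 4 values, and chance alone flags about 1 in 20 sets. Cd36 was at 133.7 CPM in the CD mouse M22 at 6 weeks, against 276 to 309 CPM in the other CD mice, and M22 is the CD mouse with few muscle transcripts. Cpt1a was lowest in the HF+SD mouse M5 at 6 weeks, at 78.8 CPM, beside 104 to 108 CPM in the rest of its group. Angptl4 was at 7.88 CPM in the CD mouse M96 at 3 weeks, beside 21.2 to 25.7 CPM. Decr1 was at 77.5 CPM in the CD mouse M55 at 3 weeks, beside 88.1 to 90.5 CPM. Acads was at 37.0 CPM in the CD mouse M48 at 6 weeks, above the 30.2 to 30.7 CPM of its group. Hsd17b4 was at 115 CPM in the CD mouse M43 at 6 weeks, above 88.2 to 91.9 CPM.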

How the results depend on the processing

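DESeq2, its size factors in edgeR and no filter on low counts left all 36 results at 6 weeks as they were, and at 3 weeks DESeq2 added 3 calls, its size factors added 1 and no filter lost 1. At 6 weeks the number of members that fell was 11 with a minimum log2 fold change of 1, 9 with the muscle covariate, 3 without M43, M45 and M48, and 12 to 24 with 1 mouse left out, while 1 member rose with thyrocyte scaling, with the muscle covariate and without M43, M45 and M48. At 3 weeks 0 rose and 1 fell with the minimum of 1, 0 rose with thyrocyte scaling, and 0 to 4 rose with 1 mouse left out. No share of all genes was computed at the minimum of 1, so whether its counts at either time are unusual cannot be told. The interaction was called for 9 members by DESeq2 and for 0 to 20 with 1 mouse left out (20 without M22, 7 without M43). No paired analysis was possible because no mouse number is shared between groups.

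No member whose sign turned had passed the test at that time. At 6 weeks the turned log2 values were, with the muscle covariate, 0.93 for Angptl4, 0.96 for Vldlr, 0.27 for Hadha and 0.063 for Etfdh. Without M43, M45 and M48 they were 1.41 for Angptl4, 1.38 for Vldlr, 0.013 for Slc25a20, 0.50 for Hadha, 0.018 for Eci1, 0.11 for Etfa, 0.29 for Etfdh and -0.0034 for Acaa1a. With thyrocyte scaling they were -0.40 for Acads, -0.53 for Acaa2, -0.31 for Acaa1a, -0.62 for Ehhadh, -0.58 for Hsd17b4 and -0.27 for Acot2. At 3 weeks thyrocyte scaling gave -0.062 for Cpt1a, -0.16 for Hadha, -0.0011 for Eci1, -0.12 for Etfb, -0.091 for Hsd17b4 and -0.062 for Acot2, and DESeq2 and its size factors both gave -0.0044 for Hadha. With 1 mouse left out, log2 values ran from -0.58 to 0.14 for Angptl4 at 6 weeks, -0.022 to 0.20 for Ehhadh at 6 weeks, -0.29 to 0.14 for Angptl4 at 3 weeks, -0.025 to 0.038 for Hadha at 3 weeks, -0.085 to 0.0047 for Etfa at 3 weeks, -0.070 to 0.15 for Etfb at 3 weeks, and -0.039 to 0.27 for Acot2 at 3 weeks. The cause of these changes was not tested. Members at low levels, such as Cpt1b, have larger errors at this depth.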

Other observations

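A few genes of the wider list, chosen after their values were seen, add to the account of uptake and mitochondria. Gpihbp1, the endothelial protein that anchors lipoprotein lipase to the vessel wall and that is also on the endothelial list, rose at 3 weeks from 10.4 to 17.6 CPM on the CD to 19.9 to 29.6 CPM on the HF+SD (log2 fold change 0.73, SE 0.17, adjusted p = 0.0197). At 6 weeks it rose from 16.5 to 23.8 CPM to 52.1 to 66.2 CPM (log2 fold change 1.45, SE 0.15, adjusted p = 0.000396). Its direction was thus opposite to that of Lpl at both times, and the endothelial list as a whole was higher.

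Ucp2, the uncoupling protein found in many tissues, rose at both times, whereas Ucp3 fell at 6 weeks. With the muscle covariate the 6-week value of Ucp3 was -1.02 and did not pass (adjusted p = 0.212). At 3 weeks Ucp2 was at 122 to 149 CPM on the CD and 236 to 262 CPM on the HF+SD (log2 fold change 0.89, SE 0.08, adjusted p = 0.000274). At 6 weeks it was at 35.7 to 62.5 CPM on the CD and 157 to 176 CPM on the HF+SD (log2 fold change 1.81, SE 0.18, adjusted p = 0.000325), and with the muscle covariate the value was 1.86 (adjusted p = 0.0021). Ppard, which encodes the relative of PPARα that most tissues express, also rose at both times, by 0.66 (adjusted p = 0.00244) and 0.60 (adjusted p = 0.0359) on the log2 scale, and with the muscle covariate the 6-week value was 0.66 with a larger error (SE 0.23) and did not pass (adjusted p = 0.103).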
